A study of Rattus norvegicus with 5 samples.

Results

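The genes described here encode the semaphorin, ephrin and netrin guidance cues and their receptors. They were chosen by symbol alone: every gene on the Affymetrix array whose symbol starts with Sema, Plxn, Epha, Ephb, Efna, Efnb or Unc5, together with Nrp1, Nrp2, Dcc, Neo1, Ntn1, Ntn3, Ntn4, Ntng1 and Ntng2 where the array names them. The rule found 53 of the 14217 genes that the array annotation names by 1 symbol, on 90 probe sets. Of these, 24 encode ligands and 27 encode receptors. The other 2, Unc50 and Unc5cl, share the letters Unc5 but are not netrin receptors, and they were kept out of the comparison of ligands with receptors.

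Granule cells, the abundant glutamatergic neurons of the cerebellar cortex, were isolated from Wistar rats 8 days old and cultured in DMEM with 10% FCS and 25 mM KCl. The groups were cells kept for 5 days with 10 µM ICRF-193 added daily (D5+), cells kept for 5 days without it (D5), and cells kept for 1 day (D1). ICRF-193 inhibits topo II, and in all groups the medium held 10 µM cytosine arabinoside, which limits the growth of glia, from a medium change late in day 1. RNA of each group was hybridized to 1 Affymetrix array, and 2 two-colour arrays of another design compared D5 with D1 and D5 with D5+. With 1 array per condition there was no replicate and no test, and values, ratios and counts past 2-fold are descriptions of these arrays, whose number limits the precision.

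Semaphorins are secreted or membrane-bound cues that signal through plexins, and most of the secreted class 3 semaphorins also need neuropilins. Ephrins are held on the membrane and bind Eph receptor tyrosine kinases on neighbouring cells, so that signals run both ways across the contact. Netrin-1 attracts axons through Dcc and repels them through the Unc5 receptors, while netrin G1 is anchored to the membrane and binds Lrrc4c rather than Dcc. In the mouse cerebellum Sema6a, its receptor Plxna2 and Unc5c are known for their part in the migration of granule cells.

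The promoters of 4 members are shown because these genes stand for the patterns described below: Epha5 and Ntng1 were higher in D5 and lower with ICRF-193, Plxnc1 was lower in D5, and Sema6d was lower with ICRF-193 only. Each run holds the 250 bases before the RefSeq start of the gene in GRCr8, written 5′ to 3′ on the strand of the gene. Capitals mark matches to CAGNTG on either strand, a motif bound by basic helix-loop-helix factors.
Epha5: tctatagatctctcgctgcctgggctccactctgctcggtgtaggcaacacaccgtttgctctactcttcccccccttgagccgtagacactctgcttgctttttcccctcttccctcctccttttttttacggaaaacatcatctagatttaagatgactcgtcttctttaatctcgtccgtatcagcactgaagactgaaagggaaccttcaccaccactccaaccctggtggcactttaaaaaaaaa
Ntng1: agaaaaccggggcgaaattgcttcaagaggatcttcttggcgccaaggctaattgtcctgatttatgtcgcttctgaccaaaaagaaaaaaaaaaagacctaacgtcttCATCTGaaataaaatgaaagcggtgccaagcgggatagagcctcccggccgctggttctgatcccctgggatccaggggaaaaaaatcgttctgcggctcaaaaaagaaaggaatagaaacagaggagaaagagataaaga
Plxnc1: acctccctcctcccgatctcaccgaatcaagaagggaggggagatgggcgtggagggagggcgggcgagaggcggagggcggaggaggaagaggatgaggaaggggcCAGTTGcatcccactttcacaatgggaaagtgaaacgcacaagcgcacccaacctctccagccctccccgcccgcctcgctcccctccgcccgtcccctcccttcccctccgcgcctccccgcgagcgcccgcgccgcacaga
Sema6d: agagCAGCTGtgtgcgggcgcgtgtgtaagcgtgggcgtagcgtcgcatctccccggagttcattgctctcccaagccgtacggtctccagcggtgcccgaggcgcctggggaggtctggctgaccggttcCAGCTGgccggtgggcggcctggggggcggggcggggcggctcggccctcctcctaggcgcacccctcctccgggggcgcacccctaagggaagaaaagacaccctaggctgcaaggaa
They lie at chr14:24007872-24008121 on the plus strand (Epha5), chr2:200515032-200515281 on the minus strand (Ntng1), chr7:31430606-31430855 on the minus strand (Plxnc1) and chr3:132337106-132337355 on the plus strand (Sema6d). CAGNTG was found at 0 places before Epha5, 1 before Ntng1, 1 before Plxnc1 and 2 before Sema6d, and 43.3% of the 33469 promoters of the table hold it. TGACG, the core of the cAMP response element, was searched on both strands and was found in none of these 4 windows, against 18.2% of all promoters. The GC content was 47.6% for Epha5, 44.8% for Ntng1, 68.8% for Plxnc1 and 70.4% for Sema6d. The median was 60.4% over the 41 members with a promoter in the table and 51.2% over all promoters, and it was 55.6% for 16 ligands and 64.4% for 23 receptors. A match describes the letters and is no evidence of a site in use.

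Affymetrix signals are linear intensities, and the level of one probe set cannot be set against that of another. A signal was counted as absent where it lay under a floor, the 40th percentile of its array (16.3 in D5+, 16.7 in D5 and 19.2 in D1), and a gene as expressed where it was above the floor in D5 or D1 and also in D5+ or D5. Where a gene has several probe sets, the brightest one by mean log2 signal gives its value. The median signal of the arrays was lowest in D5+ and highest in D1, where it was 32.9, and the median expressed gene had a log2 D5/D1 of -0.18 and a log2 D5+/D5 of -0.13, so a member near these values differed no more than the median gene did. Probe sets of 1 gene give a partial measure of technical error: over all genes, the SD of a probe set's log2 D5/D1 was 0.51 at signals of 20 to 50, 0.33 at 50 to 100, 0.24 at 100 to 200 and 0.22 at 200 to 1000, and that of log2 D5+/D5 was 0.44, 0.29, 0.22 and 0.15 in the same bins. Errors that the probe sets of a gene share on an array cancel in these SDs. The error between arrays or cultures was not measured, with 1 array per condition. The granule neuron gene Gabra6 had a signal of 686.4 in D5+, 962.7 in D5 and 84.5 in D1, and Neurod1 had 2687 in D5+, 3072 in D5 and 5654 in D1. In such cultures fewer cells of a type and less RNA per cell cannot be told apart.

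Of the 53 members, 41 were expressed and 34 were above the floor in all 3 conditions. Guidance genes moved in both directions with time in culture, and by the 40th percentile floor more of them were lower than higher in D5. At 2-fold or more, 6 expressed members (14.6%) were higher in D5 than in D1, against 9.57% of all 10328 expressed genes, and 9 (22.0%) were lower, against 9.96%. With ICRF-193, 1 member (2.44%) was higher in D5+ than in D5, against 2.12% of expressed genes, and 4 (9.76%) were lower, against 6.03%. With a floor at the 60th percentile the order turned, with 5 members higher and 4 lower in D5 than in D1. It turned over all expressed genes as well, with 8.92% higher and 7.48% lower. By both ratios together, 17 members were past 2-fold at least once and 24 were not. The D5 array enters both ratios, so an error in it would push them in opposite directions.

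**Figure D1:**
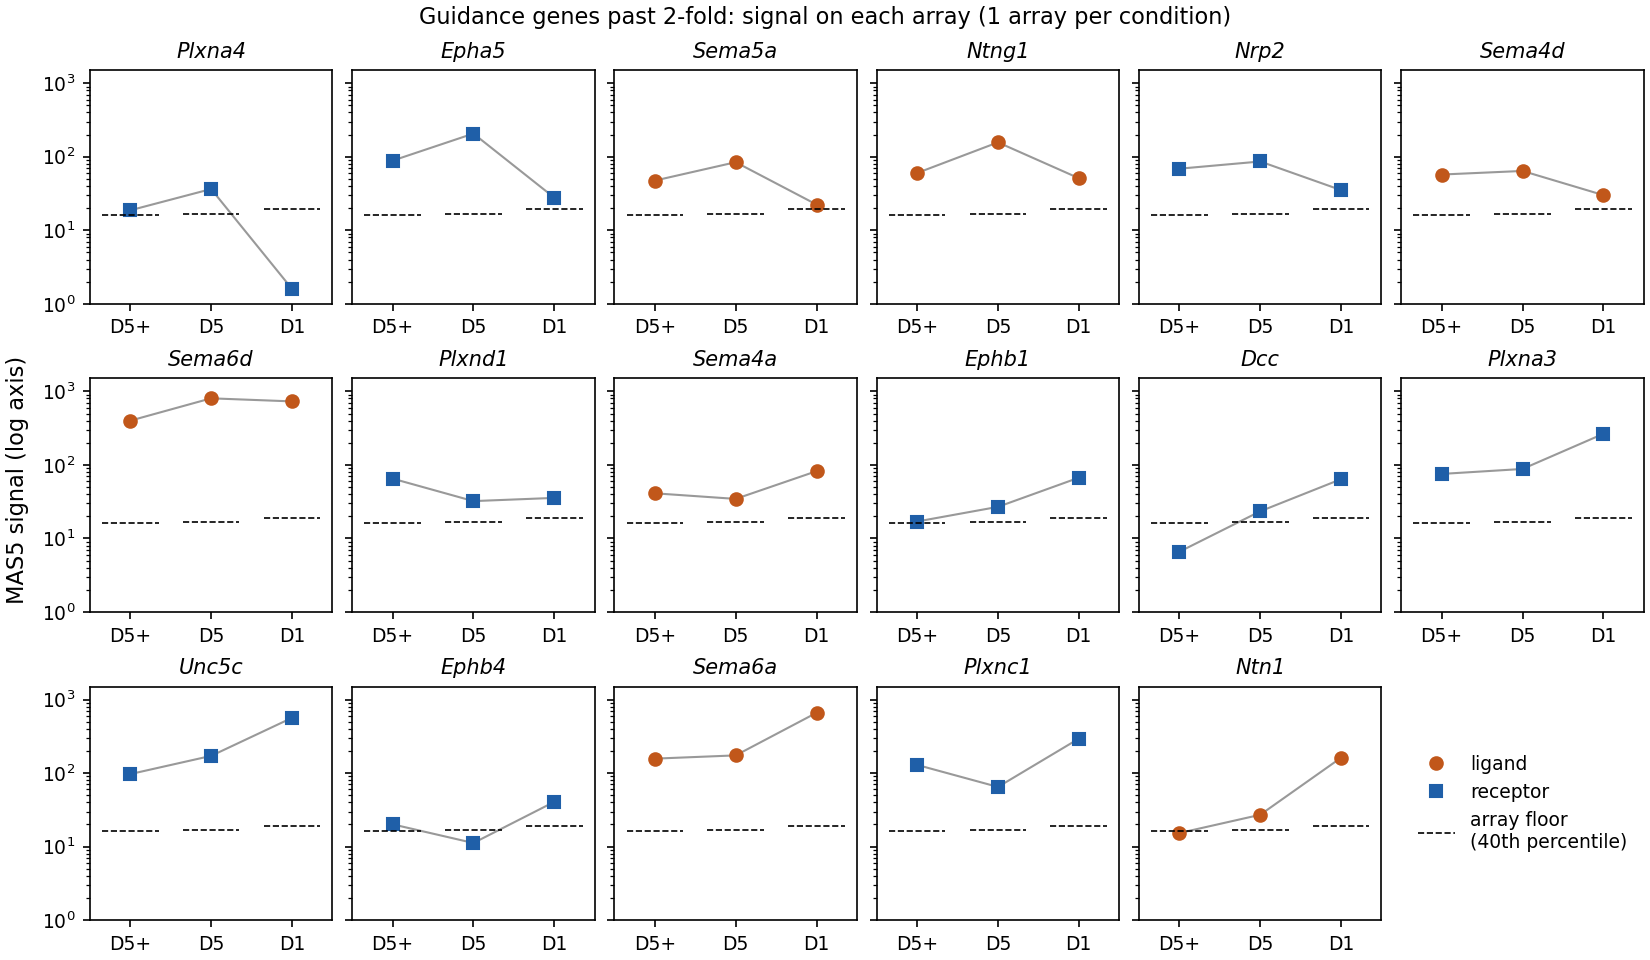
MAS5 signal (log axis) of the 17 guidance genes past 2-fold, 1 panel per gene, in D5+, D5 and D1 with 1 array each and no error bar. Orange circles are ligands, blue squares receptors, and dashed lines the floor of each array; Epha5 and Ntng1 peak in D5, while Sema6a, Unc5c, Plxnc1 and Ntn1 are highest in D1.

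Among the receptors above the floor on every array, Epha5 had the largest log2 D5/D1 by the brightest probe set. Epha5, a receptor of the A-type ephrins, had a signal of 88.5 in D5+, 206.5 in D5 and 27.8 in D1. It was 7.43-fold higher in D5 than in D1 and 2.33-fold lower in D5+ than in D5, so the level with ICRF-193 lay between the others. The two-colour arrays, whose values are log ratios of unstated base, gave 2.14 for D5 over D1 and -1.02 for D5+ over D5, the same signs.

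Ntng1, which encodes netrin G1, followed the same course. Its signal was 60.1 in D5+, 156.9 in D5 and 51.1 in D1, 3.07-fold higher in D5 than in D1 and 2.61-fold lower in D5+ than in D5. With ICRF-193 its signal was close to that of D1. The two-colour log ratio was 0.12 for D5 over D1 and -0.65 for D5+ over D5. By the brightest probe set, Epha5 and Ntng1 were the 2 members (4.88%) at least 2-fold higher in D5 than in D1 and at most 0.5 times as high in D5+ as in D5, against 2.37% of expressed genes. Each was measured by 1 probe set. The study's own class A1 takes in a gene if any of its probe sets meets these limits, and by that rule there were 3 members, with Plxna4 added. The share of all expressed genes by that rule was not computed, and the 2.37% holds for the brightest probe set only.

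Plxna4 is a plexin that pairs with neuropilins. Its brightest probe set read 18.7 in D5+, 36.4 in D5 and 1.6 in D1, where it was under the floor, so D5 was at least 1.90-fold higher than D1, a bound computed against the D1 floor. Another probe set read 2.5 in D5+, 38.2 in D5 and 7.7 in D1, which gives at least 1.99-fold for D5 over D1 and at least 2.34-fold for D5 over D5+. Both probe sets were above the floor in D5 and highest there. The count of Plxna4 among the members higher in D5 rests on its measured ratio, since the bounds over D1 do not reach 2-fold. The gene had no value on the two-colour arrays.

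The other members that were higher in D5 had smaller or more divided values. Sema5a, a transmembrane semaphorin with thrombospondin repeats, had a signal of 47.4 in D5+, 84.3 in D5 and 22.4 in D1, 3.76-fold higher in D5 than in D1, with two-colour log ratios of 0.37 for D5 over D1 and -0.31 for D5+ over D5. A dimmer probe set of Sema5a went the other way, with 17.6 in D5+, 13.9 in D5 and 20.9 in D1, with D5 under the floor, and the mean log2 D5/D1 of both probe sets was 0.66, short of 2-fold. Nrp2, a co-receptor of class 3 semaphorins, had 68.8 in D5+, 86.2 in D5 and 35.2 in D1, 2.45-fold higher in D5 than in D1, but its two-colour log ratio for D5 over D1 was -0.16. The platforms disagree on the direction of Nrp2.

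Sema4d, the ligand of Plxnb1, had a signal of 57.3 in D5+, 64.1 in D5 and 30.1 in D1, 2.13-fold higher in D5 than in D1, the member closest above the threshold. Its receptor Plxnb1 had 35.3 in D5+, 35.9 in D5 and 67.7 in D1. With the floor of each array added to every signal, log2 D5/D1 was 0.71 for Sema4d and 0.92 for Nrp2, short of 2-fold. Epha4, a receptor of both ephrin types, had 27.4 in D5+, 41.3 in D5 and 23.3 in D1 by its brightest probe set, short of 2-fold. A dimmer probe set of Epha4 had 15.6 in D5+, 26.9 in D5 and 9.5 in D1, under the floor in D5+ and D1, so that D5 was at least 1.40-fold higher than D1. Its two-colour log ratio for D5 over D1 was -0.09 as the mean of 4 probes from -0.96 to 0.44, which disagree in sign.

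The members that were lower in D5 than in D1 were 3 ligands and 6 receptors. Plxnc1, the receptor of Sema7a, had a signal of 129.1 in D5+, 64.8 in D5 and 293.7 in D1, 4.53-fold lower in D5 than in D1. Another probe set of Plxnc1 gave 71.2 in D5+, 36.2 in D5 and 351.9 in D1. Both placed D5+ between the other conditions, with a log2 D5+/D5 of 0.99 and 0.98, just short of 2-fold. It had no two-colour value.

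Sema6a had the most probe sets of any member, and they agree on time in culture. The brightest read 157.2 in D5+, 174.0 in D5 and 660.2 in D1, 3.79-fold lower in D5 than in D1. Of the other 4, 3 gave a log2 D5/D1 of -1.84 to -2.39, and the last was under the floor in D5, at least 4.67-fold lower than in D1. For ICRF-193 they were divided, with log2 D5+/D5 of -0.15 and -0.10 at the brighter 2, and -0.69 to 2.97 at the dimmer 3, of which the 1 at -0.69 was under the floor in D5+ and the 1 at 2.97 read 3.3 in D5, under the floor, so that D5+ was at least 1.54-fold higher. Plxna2, its receptor, stayed short of 2-fold in both ratios, with 79.3 in D5+, 65.5 in D5 and 82.6 in D1.

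Among the netrin genes the lower values in D5 were shared by netrin-1 and 2 of its receptors. Ntn1, which encodes netrin-1, had a signal of 15.3 in D5+, under the floor, 27.1 in D5 and 161.8 in D1, 5.97-fold lower in D5 than in D1. Unc5c had 96.9 in D5+, 171.3 in D5 and 563.4 in D1, 3.29-fold lower, and another probe set of it had 23.5 in D5+, 34.2 in D5 and 171.1 in D1. Dcc had 6.6 in D5+, 23.4 in D5 and 64.0 in D1, 2.74-fold lower in D5 than in D1. Dcc thus descended over the 3 conditions, and D5+ lay under the floor, so D5 was at least 1.44-fold higher than D5+, a bound that does not reach 2-fold although the measured ratio does.

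Neo1, which binds netrin-1 and the repulsive guidance molecules, was close to the threshold, with 124.6 in D5+, 114.3 in D5 and 216.4 in D1, and its dimmer expressed probe set was past it, with 66.0 in D5+, 56.8 in D5 and 126.5 in D1. Unc5b had 151.7 in D5+, 110.5 in D5 and 125.2 in D1, and Unc5a was under the floor in every condition. Over the 4 expressed netrin receptors the median log2 D5/D1 was -1.19, and all 4 values were below 0. Of all 10328 expressed genes 6330 were below 0, with a median of -0.18. Unc5b, at -0.18 by its brightest probe set, did not differ from that median. Its other probe set had 69.8 in D5+, 37.1 in D5 and 70.5 in D1. That gives a log2 D5/D1 of -0.93 and a log2 D5+/D5 of 0.91, both short of 2-fold. The two-colour log ratios for D5 over D1 were -0.24 for Ntn1, -0.44 for Unc5c, -0.97 for Dcc and 0.10 for Unc5b. For Dcc the two-colour log ratio of D5+ over D5 was also below 0, at -0.47, and for Ntn1 and Unc5c it was 0.09 and 0.04, opposite in sign to the Affymetrix log2 values of -0.82 each.

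The remaining members lower in D5 were Plxna3, Ephb1, Ephb4 and Sema4a. Plxna3, which mediates class 3 semaphorin signals, had 75.4 in D5+, 88.1 in D5 and 264.6 in D1, a log2 D5/D1 of -1.59, and its other probe set had 47.1 in D5+, 67.0 in D5 and 173.2 in D1. The two-colour log ratio of Plxna3 for D5 over D1 was -0.23. It is the mean of 6 probes from -0.77 to 0.40, which disagree in sign. Ephb1, a receptor of the B-type ephrins, had 17.0 in D5+, 26.9 in D5 and 67.0 in D1, 2.49-fold lower. Ephb4, the receptor of ephrin-B2 in veins, had 20.1 in D5+, 11.2 in D5 and 40.6 in D1, so that D5 was at least 2.43-fold lower than D1 by the D5 floor. The Ephb genes had no probe set higher in D5 among those expressed.

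Sema4a, a membrane-bound semaphorin, had 41.1 in D5+, 34.5 in D5 and 82.2 in D1, 2.38-fold lower in D5 than in D1, and a two-colour log ratio of 0.0002, next to 0. Just short of 2-fold lay Sema4b, Neo1 and Plxnb1, with log2 D5/D1 of -0.94, -0.92 and -0.92. Of these, Sema4b, another membrane-bound semaphorin, had 31.7 in D5+, 36.9 in D5 and 70.7 in D1, with a two-colour log ratio of 0.24 for D5 over D1, opposite in sign, as the mean of 2 probes at -0.01 and 0.50. Just past 2-fold lay Sema4d, at 1.09.

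Sema6d, a ligand of Plxna1, was lower with ICRF-193 alone. Sema6d had a signal of 399.7 in D5+, 804.3 in D5 and 730.6 in D1, 2.01-fold lower in D5+ than in D5, and D5 and D1 differed by 0.14 on the log2 scale. Its two-colour log ratio was -0.25 for D5+ over D5 and 0.05 for D5 over D1. Its receptor Plxna1 had 125.3 in D5+, 73.2 in D5 and 72.4 in D1, short of 2-fold. Sema6d lies on the threshold itself and was short of it, at a log2 D5+/D5 of -0.80 to -0.95, once the arrays were scaled to equal medians or to 1 distribution.

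Plxnd1, the receptor of Sema3e, was the 1 member higher in D5+ than in D5. It had a signal of 65.1 in D5+, 32.2 in D5 and 35.6 in D1, 2.02-fold higher, with a two-colour log ratio of 0.03 as the mean of 3 probes from -0.18 to 0.28 and, with the floor added to every signal, a log2 D5+/D5 of 0.74. Sema3e had 22.7 in D5+, 12.4 in D5, under the floor, and 20.5 in D1. Epha2 had almost the same values, with 23.5 in D5+, 12.1 in D5, again under the floor, and 20.7 in D1. Against the D5 floor, D5+ was at least 1.41-fold higher than D5 for Epha2 and at least 1.36-fold higher for Sema3e, and their place relative to 2-fold is not known. Of the members above the floor in both conditions, Plxnc1 and, at a log2 D5+/D5 of -0.96, Plxna4 were just short of 2-fold, and Plxnd1 and Sema6d, at 1.02 and -1.01, just past it.

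**Figure D2:**
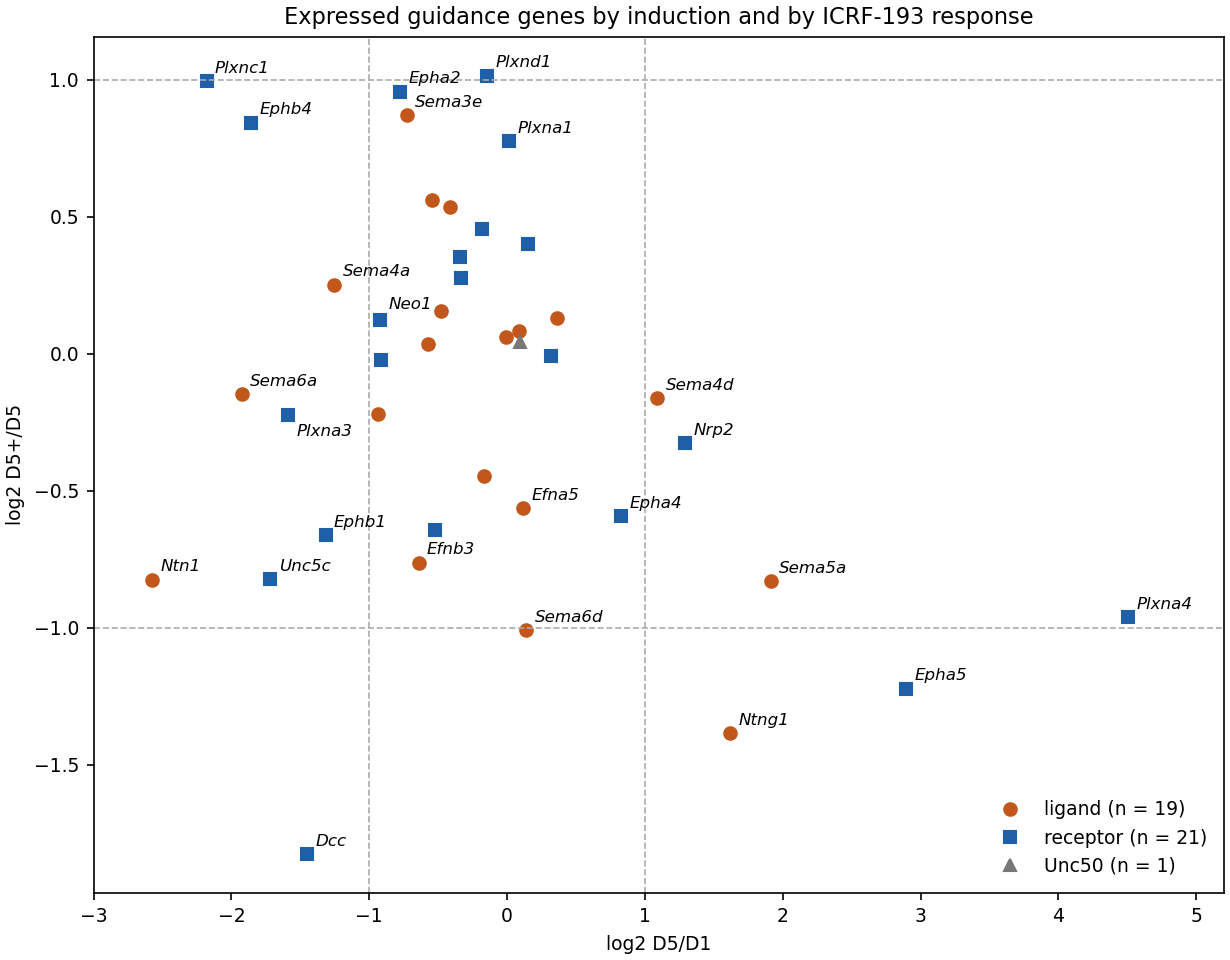
Log2 D5/D1 (horizontal) against log2 D5+/D5 (vertical) of the 41 expressed guidance genes, 1 array per condition, with dashed lines at 2-fold; the D5 array enters both axes. Epha5 and Ntng1 lie in the lower right, Dcc in the lower left, and the ligands (orange circles) and receptors (blue squares) overlap; the point of Plxna4 at 4.51 rests on a D1 signal under the floor.

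The markers of other cells moved with the same conditions. Of 11 astrocyte genes 9 were expressed, and 6 of them were 2-fold or more lower in D5+ than in D5 and none higher. Of all expressed genes, 6.03% were lower and 2.12% higher. Short of 2-fold, 2 astrocyte genes went the other way: S100b had 512.9 in D5+, 339.3 in D5 and 120.8 in D1, and Gja1 had 1062.8 in D5+, 921.2 in D5 and 469.2 in D1. The summed signal over the 11 genes was 2327 in D5+, 5304 in D5 and 3835 in D1. Gfap, the filament protein of astrocytes, had 167.0 in D5+, 1512 in D5 and 1016 in D1, and Slc1a2 was under the floor on all 3 arrays. Of 13 endothelial, mural and meningeal genes 9 were expressed, and 3 were 2-fold or more higher in D5+ than in D5. Their summed signal over the 13 genes was 3756 in D5+, 1662 in D5 and 515.4 in D1, led by the collagens Col1a1 and Col1a2. The endothelial genes Pecam1 and Vwf were under the floor on all 3 arrays. Of 4 granule precursor genes 3 were expressed and all of these were 2-fold or more lower in D5 than in D1, against 9.96% of all expressed genes. The summed signal of the 4 was 653.2 in D5+, 784.6 in D5 and 2585 in D1.

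Most expressed astrocyte genes were lower with ICRF-193, as were Epha5, Ntng1, Sema6d and Dcc. The collagens were higher with it, as was Plxnd1, and the precursor genes were lower in D5, as were Sema6a, Unc5c, Ntn1 and Plxnc1. The part of these cells in the values of the guidance genes was not tested. The summed signal was 2852 in D5+, 1865 in D5 and 2804 in D1 for 11 genes of the oligodendrocyte lineage, 869.4 in D5+, 1155 in D5 and 928.9 in D1 for 10 of microglia, 966.8 in D5+, 929.0 in D5 and 984.7 in D1 for 10 of other cerebellar neurons, and 6143 in D5+, 6881 in D5 and 9246 in D1 for 11 of granule neurons. Microglial and other neuronal sums thus varied less between conditions than the astrocyte and collagen-led sums. The granule neuron sum hides opposite moves: at 2-fold, 3 of its 11 expressed genes were higher and 4 lower in D5 than in D1. Neurod1 was the largest part of that sum. The sum of other neurons also hides opposite moves of its genes. At 2-fold, 1 of the 9 expressed was higher and 4 were lower in D5 than in D1. Its largest part, Gad1, had 552.1 in D5+, 525.9 in D5 and 320.8 in D1, while Eomes had 83.2 in D5+, 20.4 in D5 and 245.7 in D1.

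Ligands and receptors overlapped in both ratios. Of 24 ligands 19 were expressed, with 3 (15.8%) higher and 3 (15.8%) lower in D5 than in D1 and 13 short of 2-fold, and of 27 receptors 21 were expressed, with 3 (14.3%) higher, 6 (28.6%) lower and 12 short of 2-fold, against 9.57% higher and 9.96% lower of all expressed genes. For log2 D5/D1 the ligands' median was -0.42 and the receptors' -0.34, against -0.18 for all expressed genes, and the values ran from -2.58 to 1.91 for ligands and from -2.18 to 2.89 for receptors above the floor in both conditions, where Plxna4, under the floor in D1, is left out. With ICRF-193, 0 ligands were higher and 2 (10.5%) were lower, and 1 receptor (4.76%) was higher and 2 (9.52%) were lower, against 2.12% higher and 6.03% lower of all expressed genes. The median log2 D5+/D5 was -0.15 for ligands and -0.01 for receptors, against -0.13 for all expressed genes. The medians of both roles for ICRF-193 lie on either side of 0 with the processing (0.04 for ligands with mean ratios over probe sets), and that of the ligands for time in culture turns to 0.12 with a floor at the 60th percentile.

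By family, 14 of 17 semaphorins were expressed, with 2 higher and 2 lower in D5 than in D1 and a median log2 D5/D1 of -0.32. All 10 plexins and neuropilins were expressed, with 2 higher and 2 lower and a median of -0.24. Of 12 Eph receptors 7 were expressed, with 1 higher and 2 lower and a median of -0.53. The 3 expressed ephrins of 5 stayed short of 2-fold in both ratios: Efna5 had 34.8 in D5+, 51.4 in D5 and 47.4 in D1, Efnb1 had 51.8 in D5+, 35.7 in D5 and 47.6 in D1, and Efnb3 had 22.4 in D5+, 38.0 in D5 and 59.3 in D1. The log2 D5/D1 of the expressed ephrins lay between -0.64 and 0.12, and that of the Eph receptors above the floor in both conditions between -1.32 and 2.89.

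Several bright members stayed short of 2-fold in both ratios. Plxnb2 had a signal of 666.5 in D5+, 521.1 in D5 and 661.0 in D1, and Sema3c, a secreted class 3 semaphorin, had 259.4 in D5+, 353.8 in D5 and 397.6 in D1. Sema4f had 77.7 in D5+, 74.4 in D5 and 74.6 in D1, and Sema4g had 50.9 in D5+, 48.1 in D5 and 45.4 in D1. Of these 4, Sema4f and Sema4g varied least.

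The other class 3 semaphorins above the floor were Sema3d, with 34.2 in D5+, 23.2 in D5 and 33.8 in D1, and Sema3g, with 61.4 in D5+, 59.9 in D5 and 89.3 in D1. The transmembrane Sema6b had 58.8 in D5+, 53.7 in D5 and 41.7 in D1, and Sema6c had 53.5 in D5+, 48.0 in D5 and 66.8 in D1. Nrp1, the neuropilin that binds Sema3a, had 47.5 in D5+, 36.0 in D5 and 32.4 in D1, where Nrp2 was past 2-fold. The dim receptors Ephb6 and Epha10, which lack kinase activity, had 17.6 and 19.6 in D5+, 27.5 and 19.7 in D5, and 39.6 and 15.8 in D1, close to the floor in at least 1 condition. All of these 7 were short of 2-fold in both ratios by the brightest probe set. Another probe set of Sema6c was past it, with 26.6 in D5+, 22.5 in D5 and 53.8 in D1, a log2 D5/D1 of -1.26. Unc50, the Golgi protein, had 389.5 in D5+, 378.1 in D5 and 354.2 in D1.

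The 12 members under the floor were Efna1, Efna4, Epha3, Epha6, Epha7, Epha8, Ephb3, Sema3a, Sema3b, Sema3f, Unc5a and Unc5cl. Efna4 and Epha3 were above it in D1 alone, with 23.5 and 33.9, and Sema3f in D5+ alone, with 22.2. For Sema3a, the best-known repellent of this group, the signal was 1.6 in D5+, 8.8 in D5 and 10.2 in D1, under the floor on every array.

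Where a member had several expressed probe sets they mostly agreed on time in culture. Of 13 such members, 12 had the same sign of log2 D5/D1 in every expressed probe set, with Sema5a the exception. For log2 D5+/D5 it was 9 of 13, and the exceptions were Plxna2, Plxnb1, Sema5a and Sema6a, whose brightest probe sets were all short of 2-fold in that ratio.

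**Figure D3:**
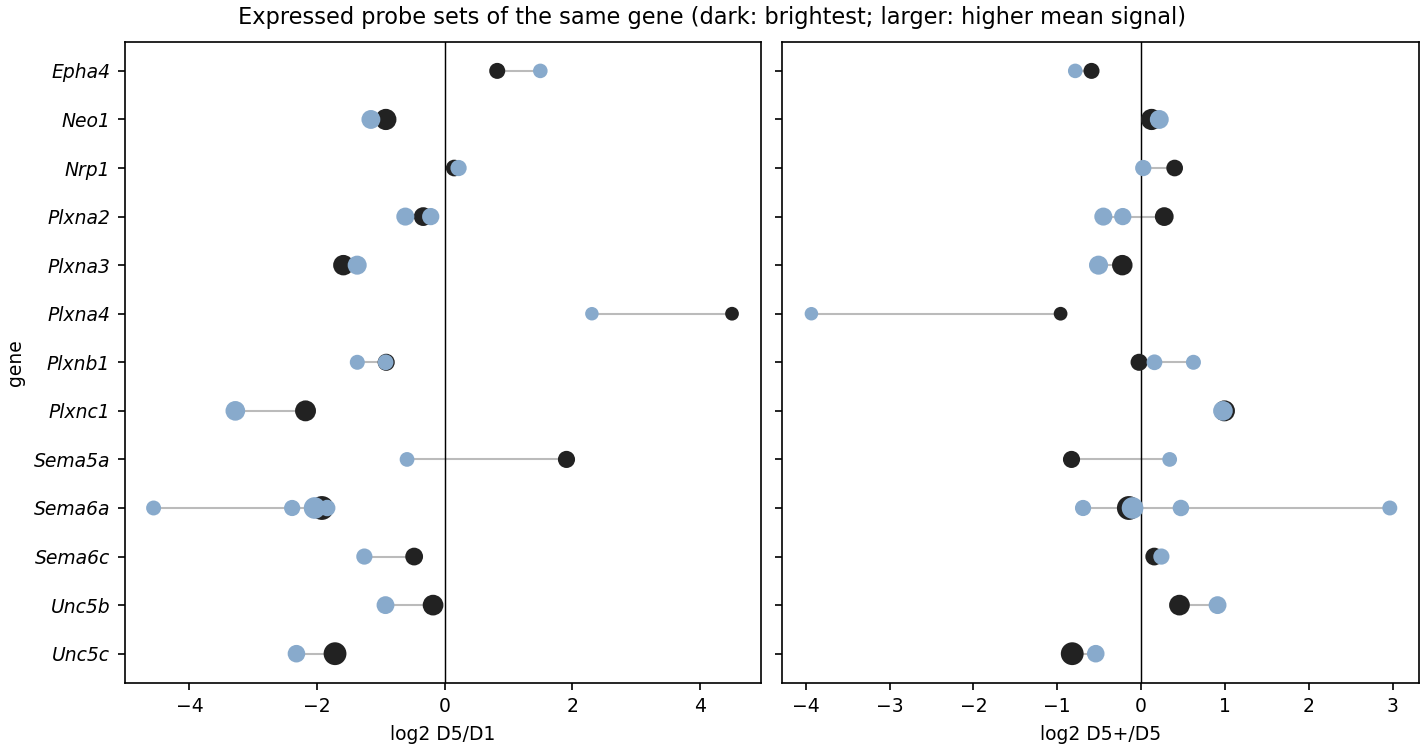
Log2 D5/D1 (left) and log2 D5+/D5 (right) of the expressed probe sets of the 13 members with several, 1 row per gene, with a line from the lowest to the highest value. Dark points are the brightest probe set of a gene and area grows with mean signal; Sema5a is the 1 gene that crosses 0 on the left, and the rows of Sema6a and Plxna4 are the longest on the right, where each holds a probe set under the floor in 1 of the conditions.

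On the two-colour arrays 36 of the 53 members were named. The log ratio of D5 over D1 was above 0 for 18 of the 36, against 51.8% of all genes there, and that of D5+ over D5 for 20 of the 36, against 49.0%. By role, D5 over D1 was above 0 for 12 of 18 ligands and 5 of 17 receptors, with medians of 0.017 and -0.15, and D5+ over D5 for 9 of 18 ligands and 11 of 17 receptors. On the Affymetrix arrays log2 D5/D1 was above 0 for 7 of 19 expressed ligands and 7 of 21 expressed receptors, against 3990 of all 10328 expressed genes. The two-colour counts include members under the Affymetrix floor, and some ligand values there lie next to 0, such as Sema4a at 0.0002 and Sema6b at 0.0037. The splits by sign thus cover unlike sets of genes, and the difference between the roles was not tested.

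For members past 2-fold the signs of the platforms mostly matched. Of members higher in D5 than in D1, 3 of the 4 with a two-colour value had the same sign, against 86.3% of all such genes, and of those lower 4 of 5, against 86.2%, with Nrp2 and Sema4a the exceptions. For D5+ over D5 the 1 higher member had the same sign, against 83.3% of such genes, and so had all 4 lower ones, against 81.2%. Over the 28 expressed members on both platforms the sign was the same for 17 (60.7%) in D5 over D1, a smaller share than the 70.8% of 6782 expressed genes, and for 19 (67.9%) in D5+ over D5, against 66.4%. Pearson's r over the 28 was 0.66 for D5 over D1 and 0.67 for D5+ over D5, with Epha5 far from the other points, against 0.61 and 0.52 over all these genes. The genes are not independent, and these r values only describe how the platforms compare.

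**Figure D4:**
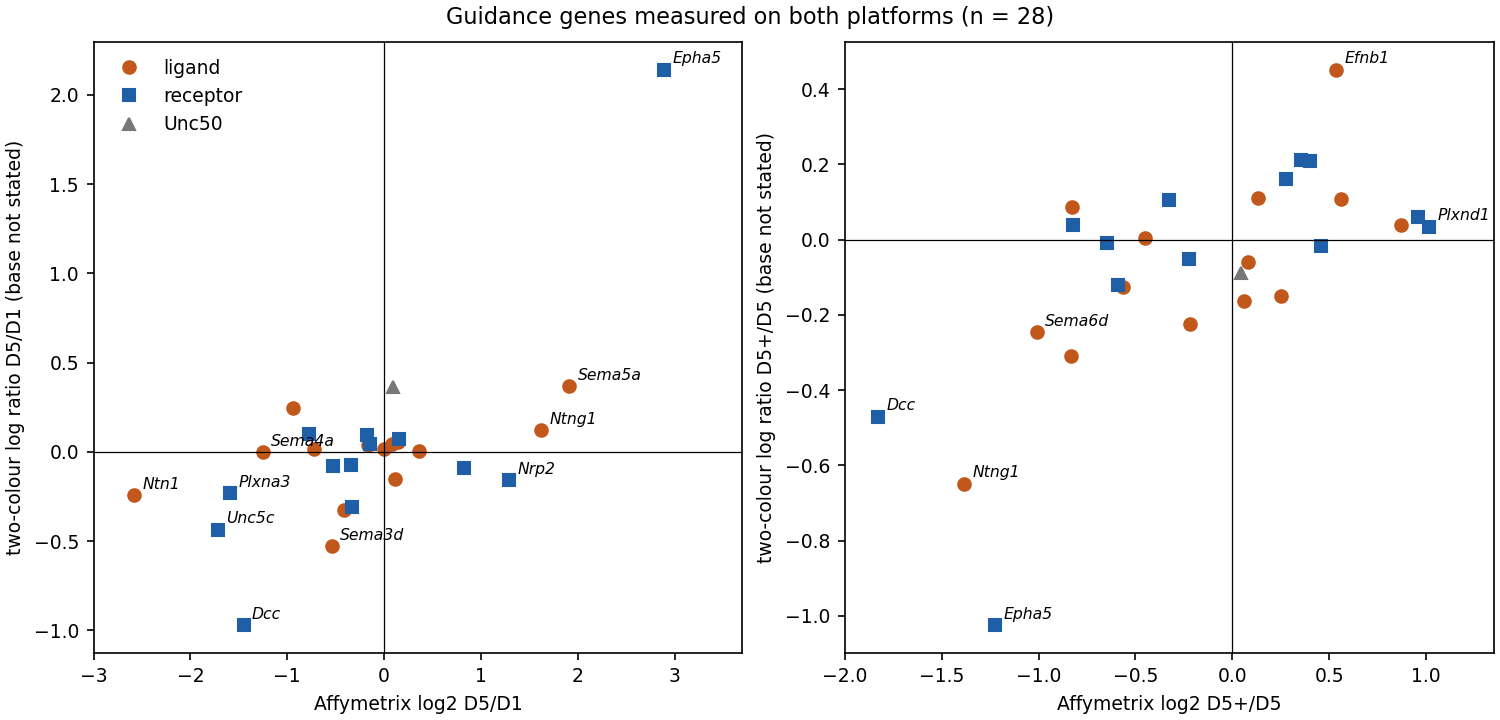
Two-colour log ratio (vertical, base not stated) against Affymetrix log2 ratio (horizontal) of the 28 expressed guidance genes on both platforms, for D5/D1 (left) and D5+/D5 (right). Circles are ligands, squares receptors and the triangle Unc50; Epha5 stands apart in both panels, at 2.14 and -1.02 on the two-colour axis.

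The partners of these receptors inside the cell were taken from lists of known pathway genes and counted by the same 2-fold rule. Of 18 expressed genes of semaphorin signalling, 3 were higher and 2 lower in D5 than in D1, and 1 was lower in D5+ than in D5. Mical2, an enzyme that oxidizes actin, had 33.9 in D5+, 37.7 in D5 and 9.9 in D1, under the floor. Limk1, the kinase of cofilin, had 42.0 in D5+, 45.9 in D5 and 152.5 in D1, and Dpysl3, a collapsin response mediator, had 60.5 in D5+, 58.8 in D5 and 192.6 in D1. Rnd1, a GTPase that binds plexins, was the 1 lower with ICRF-193, with 10.6 in D5+, under the floor, 34.6 in D5 and 18.3 in D1. Over all expressed genes, too, 2-fold was passed more often with time in culture (9.57% higher and 9.96% lower) than with ICRF-193 (2.12% higher and 6.03% lower), and these shares stand beside the counts of each partner list.

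Of 13 expressed genes of ephrin signalling, 1 was higher and 3 were lower in D5 than in D1, and 1 was higher and 1 lower in D5+ than in D5. Vav2, which Eph receptors recruit, had 53.7 in D5+, 28.1 in D5 and 301.8 in D1, with a two-colour log ratio of -1.26 for D5 over D1. Its relative Vav3 had 14.1 in D5+, under the floor, 53.2 in D5 and 45.4 in D1, and its two-colour log ratio for D5+ over D5 was 0.09, opposite in sign. The chimaerins, which switch off Rac, also differed: Chn2 had 324.8 in D5+, 323.1 in D5 and 98.4 in D1, while Chn1 had 34.7 in D5+, 16.6 in D5, under the floor, and 52.5 in D1. The two-colour log ratio for D5 over D1 was 0.0045 for Chn2, which shows no rise, and -0.28 for Chn1.

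Of 11 genes of netrin signalling named on the array, all expressed, 1 was higher and 3 were lower in D5 than in D1, and 1 was higher in D5+ than in D5. Enah, an actin regulator, had 61.5 in D5+, 39.2 in D5 and 120.1 in D1, and Ptk2, the focal adhesion kinase that binds Dcc, had 146.5 in D5+, 120.6 in D5 and 255.7 in D1. Dapk1, a death-associated kinase, had 101.5 in D5+, 46.1 in D5 and 112.5 in D1, higher in D5+ than in D5. Ablim1, an actin-binding protein, was the 1 higher in D5, with 138.5 in D5+, 96.4 in D5 and 34.8 in D1.

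Of 12 further ligands and partners, 2 were higher and 2 lower in D5 than in D1, and 2 were higher in D5+ than in D5. Draxin, a secreted ligand of Dcc, had 65.5 in D5+, 24.4 in D5 and 704.5 in D1, a log2 D5/D1 of -4.85 and a log2 D5+/D5 of 1.42, so it was lower in D5 along with Ntn1 and Dcc. Lrrc4c, the partner of netrin G1, had 69.6 in D5+, 80.7 in D5 and 46.4 in D1, short of 2-fold where Ntng1 was past it. Flrt1, of a family that binds Unc5 receptors, had 99.7 in D5+, 76.2 in D5 and 27.5 in D1, Bmp2 had 82.0 in D5+, 43.5 in D5 and 17.8 in D1, and Gpc3 had 12.1 in D5+, 21.2 in D5 and 56.9 in D1.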

How the data were processed

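RNA of D5+, D5 and D1 granule cells was measured on 3 Affymetrix rat arrays, 1 per condition, and on 2 two-colour arrays. For the Affymetrix arrays the authors deposited intensity values on a linear scale, made with GCOS and MAS5 according to the submitters' processing notes and the methods. The methods name a 50th percentile normalization, but the medians of the 31042 probe sets other than controls differ, so intensities were not rescaled. The floor stands in for detection calls, which were not used. A signal of 0 was read as 0.1. The two-colour arrays were deposited as log ratios, and the sources used here give neither their base nor how background and dyes were corrected. Direction was taken from the dyes in the labels, and the D5 over D5+ array was turned to D5+ over D5. Of its probes 96 had no value, and 62 on the D5 over D1 array.

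Symbols came from the array annotation: 20826 Affymetrix probe sets had 1 symbol, 436 several and 9780 none, and 12750 of 20500 two-colour probes had 1. Two-colour values are means over the probes of a gene. All 53 member symbols are in the RefSeq table of GRCr8, from which the promoters come.

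The 2-fold and 0.5-fold limits are those of the methods. The grouping step was run on simulated data with bright genes raised well past 2-fold and less noise than dim probe sets show. That run checks the code only and does not measure errors in grouping the members. Unlike the methods, which put a gene in A1 if any probe set is A1 and then in A2 if any is A2, a gene was grouped by its brightest probe set, which moves Plxna4 out of A1 and Epha4 out of A2. Members, marker and partner lists were chosen with earlier results of these data known. The genes named by rule are members past 2-fold, those with a probe set in A1 or A2 (at least 2-fold higher in D5, with or without a loss in D5+), the expressed member of each subfamily with the largest ratio, and up to 4 expressed genes of each partner list by size of ratio. Other members, Lrrc4c, Gabra6, Neurod1 and the named markers were picked after their values were seen. Alternatives were other floors (20th and 60th percentile, none, or all 3 arrays), 1.5-fold and 3-fold thresholds, 2 median scalings, quantile normalization, an added offset, mean ratios over probe sets, and for the two-colour arrays centring, medians and 1 probe per gene. A count of members with a matching two-colour sign was added after seeing the data. With 1 array per condition no p-value was computed. Tools were Python 3.11.15, pandas 2.3.3, numpy 2.4.6 and matplotlib 3.10.9.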

Additional observations from a re-analysis of the deposited data

How the results depend on the processing

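No paired analysis was possible because each condition had 1 array, and no array could be left out. The 20 ratios past 2-fold kept their sign in all 100 recomputed values. These alternatives could hardly turn a sign, so that count says little. The scalings shifted ratios little, the offset shrinks them, and mean ratios repeat the value of genes with 1 expressed probe set. Of the 100 values, 13 moved by more than the spread between probe sets, mostly with an offset added to every signal. That spread was the SD at signals of 50 to 100 for every gene, 0.33 for log2 D5/D1 and 0.29 for log2 D5+/D5. It is smaller than the SD at dimmer signals. The counts depend on the floor and the threshold. Members lower in D5 than in D1 numbered 14 with a floor at the 20th percentile or none, 4 with one at the 60th (where 5 were higher, so that the order turned), 15 at 1.5-fold, and 4 (and 3 higher) when a two-colour value of the same sign was required, an alternative chosen after seeing the data. Of all expressed genes, 12.55% were lower in D5 with a floor at the 20th percentile and 16.64% with none. With one at the 60th, 7.48% were lower and 8.92% higher, so the order turned there too. Members higher in D5+ than in D5 numbered 5 with a floor at the 20th percentile, 6 with none, 0 with one at the 60th, 3 with either median scaling, 2 with quantile normalization, 0 with the offset, 6 at 1.5-fold and 0 at 3-fold. Those lower in D5+ numbered 7 with a floor at the 20th percentile, 8 with none, 2 with the offset, 12 at 1.5-fold and 1 at 3-fold. Of all expressed genes, 4.69% were higher and 9.72% lower in D5+ with a floor at the 20th percentile. These shares were 8.76% and 10.78% with none, 1.02% and 4.56% at the 60th, and 0.86% and 2.96% with the offset. With the median scalings and quantile normalization, 2.51% to 2.81% were higher. Shares at 1.5-fold and 3-fold were not computed. The members added without a floor have signals under it. The median log2 D5/D1 of ligands was 0.12 with a floor at the 60th percentile, and of the 28 expressed members 13 had a two-colour D5+ over D5 above 0. Scaling to equal medians of all probe sets moved the median gene to -0.01 for D5/D1 and -0.07 for D5+/D5, and the split of all expressed genes in D5 over D1 to 11.87% higher and 7.05% lower, against 9.57% and 9.96%, while the 6 higher and 9 lower members stayed the same genes. Epha5 and Ntng1 stayed in A1 under every alternative run for that class, and Plxna4 joins if any probe set counts. The cause of these shifts was not tested. Errors between probe sets were widest at mean signals of 20 to 50. By single arrays rather than the mean, at least 1 signal of Epha5, Sema5a, Nrp2, Sema4d, Sema4a, Ntn1, Dcc, Ephb1, Ephb4, Plxna4 and Plxnd1 lies in that range.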

Other observations

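The two-colour arrays name 7 further genes of these families that the Affymetrix annotation does not give by 1 symbol. Ephb2, a receptor of the B-type ephrins, had a log ratio of -0.68 for D5 over D1 and 0.22 for D5+ over D5, and Ntn4, a netrin of basement membranes, had -0.44 and 0.16 for the same ratios. Efna2 had -0.13 and 0.18 as means of 2 probes, and Epha1 had -0.21 and 0.21. Ntn3 had 0.01 and -0.07, Unc5d had 0.04 and -0.20, and Plxnb3 had -0.02 and -0.0024 as means of 4 probes, which ran from -0.48 to 0.24 for D5 over D1. There was 1 array for each ratio and no replicate. Among the members under the Affymetrix floor, Sema3b had -0.63 for D5 over D1 and 0.29 for D5+ over D5 on the two-colour arrays, and Ephb3 had -0.37 and 0.33.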
